A study of Mus musculus with 24 samples.

Results

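The genes described here are 9 genes of neutrophil granules and of the S100 family, S100a8, S100a9, Ngp, Camp, Ltf, Elane, Mpo, Ly6g and Retnlg, followed through the RNA of mouse bone marrow-derived macrophages (BMDMs). They were taken by symbol from a count table of 55421 genes, in which each of the 9 matched 1 Ensembl identifier. BMDMs from wildtype C57BL/6J mice (WT) and from AhR-deficient mice of the strain B6.129-Ahr tm1Bra/J, which lack the aryl hydrocarbon receptor (AhR), a ligand-activated transcription factor, were either left unstimulated or given LPS, a bacterial cell wall component that signals through Tlr4. This gave 4 groups, WT unstimulated, AhR-deficient unstimulated, WT after LPS and AhR-deficient after LPS, of 6 libraries each. Bone marrow cells of every group were grown with GM-CSF at 10 ng/ml and TGF-β at 2 ng/ml, which gives macrophages with features of alveolar macrophages. LPS was added at 97 EU/ml on day 6 for 24 h, and all cells, the controls included, received the calcium ionophore A23187 at 5 µM for 10 min before harvest. The mutation is carried by every cell of the animal, so the marrow cells were AhR-deficient before culture. WT and AhR-deficient mice are separate strains and are not described as littermates, so strain and genotype cannot be told apart. Per the methods of the study, the mice were young adults of both sexes, with 6 animals per group in a single experiment. The sex and age of the animal behind a given library are not stated, nor whether an unstimulated and an LPS library came from the same animal. All fits below treat the libraries as unpaired.

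Neutrophils fill their granules in sequence as they mature in the bone marrow. Primary (azurophilic) granules, made by promyelocytes, hold myeloperoxidase (Mpo) and neutrophil elastase (Elane), and secondary (specific) granules, made by myelocytes, hold lactoferrin (Ltf), the cathelicidin antimicrobial peptide (Camp) and the neutrophilic granule protein (Ngp). S100a8 and S100a9 are calcium-binding proteins that pair to form calprotectin, the most abundant protein complex of the neutrophil cytosol, which is also made by monocytes. Ly6g is the surface antigen commonly used to stain mouse neutrophils, and Retnlg is a resistin-like secreted protein found in mature neutrophils. In BMDM cultures these transcripts can come from granulocytes or their precursors carried over from the marrow or from the macrophages themselves. In bulk RNA, fewer cells of a type and less RNA per cell cannot be told apart.

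Each library held between 45106052 and 76992663 counts. The macrophage markers were present in every group, with a summed level of 7303 to 15393 CPM (counts scaled to a common library size) per library, and no marker of that list was at 0 in a group. B cell markers summed to at most 0.567 CPM in a library. The targeted gene, Ahr, had a median of 30.7 CPM in WT and 7.40 CPM in AhR-deficient unstimulated libraries, but after LPS it ranged from 6.57 to 27.9 CPM in WT and from 21.4 to 63.8 CPM in AhR-deficient libraries. The count is for the gene as a whole and was not split by exon, so it does not check the labels. The WT libraries 34 (unstimulated) and 38 (after LPS) had 2 and 4 counts on Y-linked genes, against 8596 to 15082 in the other libraries, and results were also computed without both. These libraries carry numbers 4 apart, as do libraries 33 and 37 and libraries 25 and 29, which also stood out in the same genes as each other, and whether such libraries share an animal is not stated. Library numbers run from 17 to 40 in 3 blocks of 8, each with 2 libraries of every group, and the labels do not say what the blocks are.

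In the genome build mm10, S100a8 lies at chr3:90668978-90670035 on the plus strand and S100a9 at chr3:90692632-90695721 on the minus strand, 22.6 kb apart with no annotated gene between them. The 3 secondary granule genes share a stretch of chromosome 9, with Camp at chr9:109847379-109849617 on the minus strand, Ngp at chr9:110419747-110423012 and Ltf at chr9:111019271-111042767 on the plus strand. Elane is at chr10:79886247-79888215, Mpo at chr11:87793581-87804413, Ly6g at chr15:75155240-75159126 and Retnlg at chr16:48872621-48874496, all on the plus strand. Between Camp and Ltf, a window of 1195 kb, lie 51 other annotated genes, of which 19 were tested. By edgeR's quasi-likelihood test none of these 19 was called in either genotype comparison, and 0 had an unadjusted p under 0.05, while Camp, Ngp and Ltf were all called without stimulation.

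Most of the 9 genes moved together between the genotypes, so the bases before their transcription starts are shown for the S100 pair, for 2 secondary granule genes and for 1 primary granule gene. The sequences are from RefSeq, build GRCm38.p6, and each is the part of the window upstream of the start in both annotations, written 5′ to 3′ on the strand of the gene. Capitals mark matches to the letters TTGCNNAA, read here for C/EBP factors, which act in granulocyte development, and GAGGAA, read for PU.1, a factor of the myeloid lineage, each on either strand.
S100a8 (chr3:90668821-90668977, plus strand): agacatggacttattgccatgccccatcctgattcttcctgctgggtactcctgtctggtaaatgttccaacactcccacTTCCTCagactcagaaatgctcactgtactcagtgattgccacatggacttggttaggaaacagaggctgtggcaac
S100a9 (chr3:90695722-90695971, minus strand): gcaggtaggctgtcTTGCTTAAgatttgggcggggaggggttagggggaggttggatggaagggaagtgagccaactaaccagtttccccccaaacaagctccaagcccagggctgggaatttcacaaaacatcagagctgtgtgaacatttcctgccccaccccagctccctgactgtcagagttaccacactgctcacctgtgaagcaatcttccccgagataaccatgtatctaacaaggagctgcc
Ngp (chr9:110419558-110419746, plus strand): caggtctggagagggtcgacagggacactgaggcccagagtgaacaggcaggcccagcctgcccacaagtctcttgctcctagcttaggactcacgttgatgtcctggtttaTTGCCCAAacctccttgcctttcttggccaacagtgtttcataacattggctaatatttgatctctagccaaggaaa
Ltf (chr9:111019042-111019270, plus strand): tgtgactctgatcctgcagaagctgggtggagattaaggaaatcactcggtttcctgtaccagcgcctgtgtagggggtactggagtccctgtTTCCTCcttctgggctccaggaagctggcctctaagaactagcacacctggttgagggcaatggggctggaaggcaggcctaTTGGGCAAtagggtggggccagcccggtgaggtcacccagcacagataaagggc
Elane (chr10:79886062-79886246, plus strand): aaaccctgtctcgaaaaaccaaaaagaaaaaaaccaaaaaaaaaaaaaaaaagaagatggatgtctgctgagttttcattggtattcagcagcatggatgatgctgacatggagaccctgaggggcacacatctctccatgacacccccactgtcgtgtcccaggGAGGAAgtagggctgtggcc

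All 9 genes had a RefSeq window of 300 bases, reaching from 250 bases before the start to 50 bases after it. Ly6g had 2 such windows, and the counts below use the first. In the other, TATAAA stood 167 bases before the start and the C/EBP letters were absent. The C/EBP letters were in the windows of 5 of the 9 genes, S100a9, Ngp, Ltf, Ly6g and Retnlg, and in 10.8% of all 32851 windows. The PU.1 letters were also in 5, S100a8, Ltf, Elane, Mpo and Ly6g, and in 28.3% of all windows. The letters TATAAA on the gene strand stood 30 bases before the start of S100a8, at the start of S100a9 and 99 bases before the start of Ly6g, and in 8.32% of all windows. The core letters to which AhR binds with its partner, GCGTG on either strand, were in none of the 9 windows and in 32.4% of all windows. Ngp and Ltf shared the full C/EBP match TTGGGCAA, which stood in 0.828% of all windows and was picked after the letters had been read. These are matches of letters in short windows and were not tested as binding sites.

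The 9 genes covered a wide range of levels. Per kilobase of exon, WT unstimulated libraries averaged 3262 ± 3654 CPM per kb for S100a8 and 2814 ± 2739 for S100a9 (SD, n = 6). Ngp followed at 313 ± 212, Camp at 94.9 ± 122 and Ltf at 59.2 ± 67.0 CPM per kb. Ly6g at 4.38 ± 4.11, Elane at 4.14 ± 3.40, Retnlg at 1.13 ± 0.620 and Mpo at 0.0209 ± 0.0286 CPM per kb were the lowest. The 6 libraries separated S100a9 from Ngp, Ltf from Ly6g and Retnlg from Mpo without overlap, and the other neighbours in this order overlapped. The AhR-deficient unstimulated libraries gave the same order, from 401 CPM per kb for S100a8 to 0.0201 for Mpo. After LPS the WT means were led by S100a9 at 2114 CPM per kb and S100a8 at 1823, and the AhR-deficient means by S100a8 at 296 and S100a9 at 215. Elane was the lowest of the AhR-deficient LPS group at 0.00611 CPM per kb. Mpo stood far below Elane in unstimulated cells, although both are primary granule genes.

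**Figure D1:**
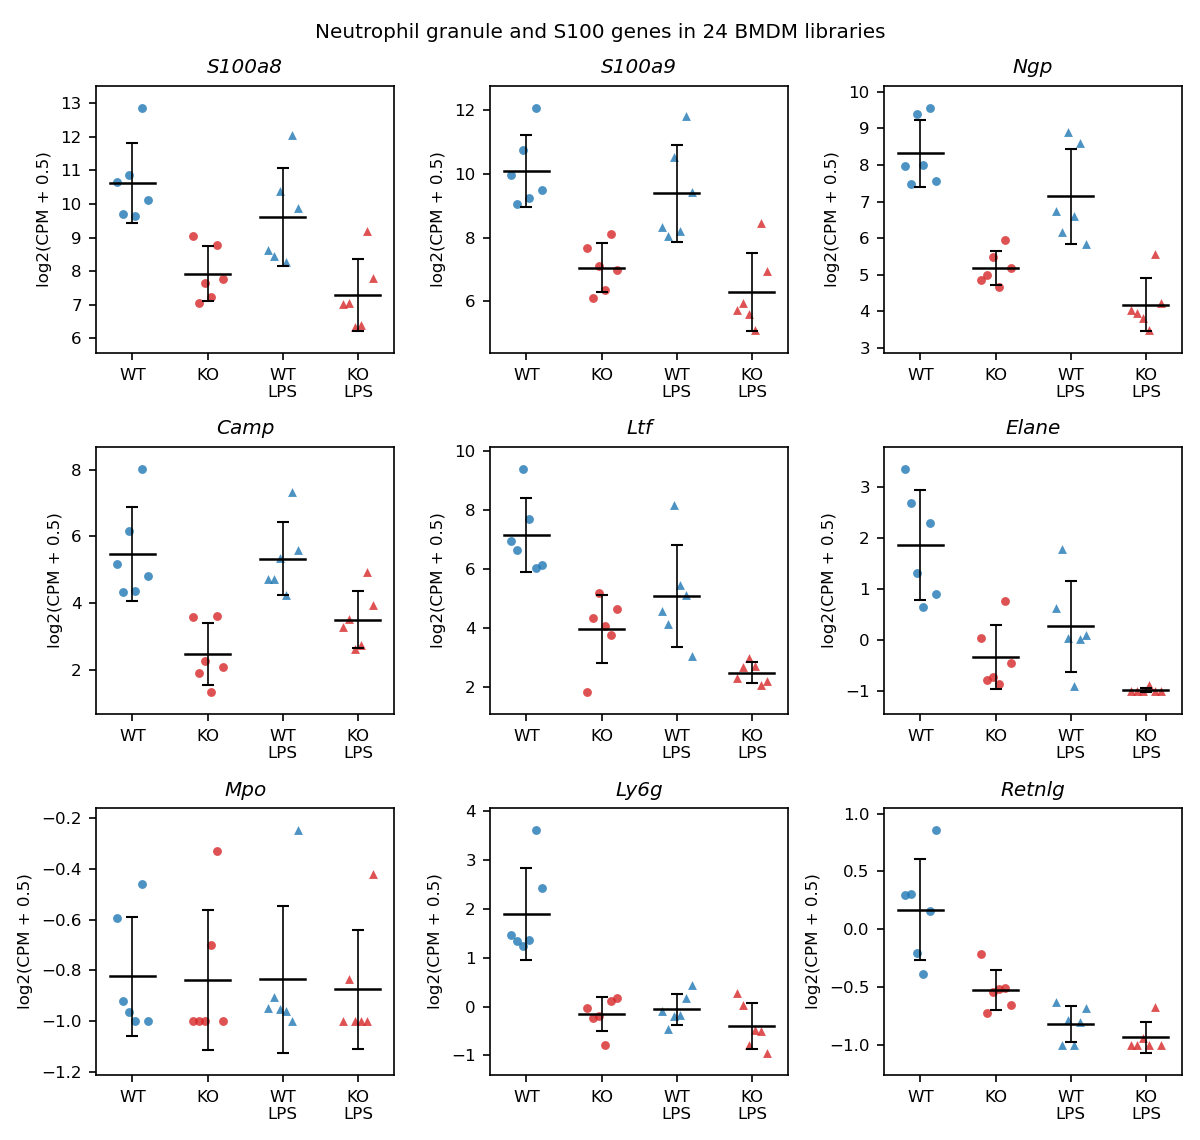
Level of each of the 9 genes in the 24 libraries, as log2(CPM + 0.5), by group (WT, WT after LPS, KO for AhR-deficient, KO after LPS). Each point is a library, the bar is the mean and the whisker the SD of 6 libraries. In 6 of the panels the unstimulated AhR-deficient points lie below all unstimulated WT points.

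The first comparison asks how the BMDMs of both genotypes differ without stimulation. Of the 9 genes, 8 had enough counts to be tested, and 7 were lower in AhR-deficient BMDMs, between 8.14-fold for S100a8 and 11.9-fold for Camp. None was higher. A gene was called at an adjusted p of at most 0.05 by edgeR's quasi-likelihood test (Benjamini-Hochberg over all 16593 genes tested) and a change of at least 2-fold. Lower calls took 3.57% of all tested genes and calls in either direction 4.48%. The median log2 fold change of the 8 tested genes was -3.32, against -0.01 for all genes. For S100a8, S100a9, Ngp, Camp, Ltf and Ly6g all 6 AhR-deficient libraries lay below all 6 WT libraries, which held for 3.44% of all tested genes.

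S100a8, the smaller partner of calprotectin, had 791, 1355 and 7365 CPM in the lowest, median and highest WT library and 133, 210 and 526 CPM in the AhR-deficient ones. The groups did not overlap, and the highest WT library, number 33, stood well above the next at 1880 CPM. The log2 fold change was -3.02 ± 0.73 (SE; edgeR's quasi-likelihood test, adjusted p = 0.0106). Without library 33 it was -2.16 (adjusted p = 0.0484 by the same test). S100a9, the other partner, ranged from 534 to 4254 CPM around a median of 858 in WT and from 67.8 to 277 CPM around 132 in AhR-deficient libraries. It was 9.87-fold lower, with a log2 fold change of -3.30 ± 0.75 (edgeR's quasi-likelihood test, adjusted p = 0.00611) and of -2.62 without library 33. The exact two-sided permutation test of the mean log2(CPM + 0.5) gave p = 0.00216 for both genes, the smallest value that 6 against 6 libraries can give.

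Among the secondary granule genes, Ngp showed the tightest separation. It had 177 to 749 CPM (median 253) in WT and 24.8 to 61.0 CPM (median 33.4) in AhR-deficient libraries, a log2 fold change of -3.34 ± 0.56 (edgeR's quasi-likelihood test, adjusted p = 0.000302). No library left out moved this value by more than 1.5-fold. Camp, the precursor of the mouse cathelicidin peptide, had 19.4 to 257 CPM (median 31.6) in WT and 2.02 to 11.7 CPM (median 4.01) in AhR-deficient libraries. Its log2 fold change was -3.57 ± 0.73 (edgeR's quasi-likelihood test, adjusted p = 0.00234), and -2.53 without library 33. Ltf, the iron-binding protein lactoferrin, had 64.4 to 664 CPM (median 110) in WT and 3.06 to 35.5 CPM (median 17.8) in AhR-deficient libraries. The highest Ltf value was that of WT library 25 rather than 33. The log2 fold change of Ltf was -3.46 ± 0.78 (edgeR's quasi-likelihood test, adjusted p = 0.00575), and -2.59 without library 25. The exact permutation p was 0.00216 for each of these 3 genes.

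The primary granule genes were at low levels. Elane, the serine protease neutrophil elastase, had 1.07 to 9.71 CPM (median 3.19) in WT and 0.0496 to 1.19 CPM (median 0.163) in AhR-deficient libraries, and 5 of the 6 AhR-deficient libraries lay below the lowest WT library. Its log2 fold change was -3.50 ± 0.86 (edgeR's quasi-likelihood test, adjusted p = 0.012; exact permutation p = 0.00433), and -4.42 without the AhR-deficient library 35. Mpo, the heme enzyme that makes hypochlorous acid, did not reach the count minimum for a test. It had 25 counts over the 6 WT and 26 over the 6 AhR-deficient unstimulated libraries, with counts in 4 and 2 libraries, and at most 0.297 CPM in any of them. A difference in Mpo was not detectable at this depth.

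Ly6g had 1.86 to 11.7 CPM (median 2.15) in WT and 0.0827 to 0.636 CPM (median 0.426) in AhR-deficient libraries, without overlap. The log2 fold change was -3.30 ± 0.64 (edgeR's quasi-likelihood test, adjusted p = 0.00146; exact permutation p = 0.00216), and -2.64 without library 33. Ly6g belongs to a family of near-identical neighbouring genes, and since only uniquely aligned fragments were counted, reads that fit another member equally well are missing from its count. Retnlg had 0.266 to 1.31 CPM (median 0.671) in WT and 0.106 to 0.363 CPM (median 0.193) in AhR-deficient libraries, and 5 of 6 AhR-deficient libraries lay below all WT libraries. It was the one tested gene of the 8 that was not called here, with a log2 fold change of -1.75 ± 0.73 (edgeR's quasi-likelihood test, adjusted p = 0.227; exact permutation p = 0.00433). Retnlg was called when only the 12 libraries compared were fitted (-1.73, adjusted p = 0.0257 by the same test). Within each of the 3 blocks of library numbers, the AhR-deficient mean was below the WT mean for all 8 tested genes. These values come from the libraries of the fit and from genes that vary together. The share of all genes for which this held was not counted.

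The second comparison asks the same of BMDMs after LPS. S100a8, S100a9, Ngp, Ltf and Elane were lower in AhR-deficient cells, 5 of the 8 tested genes, and none was higher. Lower calls took 6.19% of all tested genes and calls in either direction 8.36%. The median log2 fold change of the 8 genes was -2.96, against -0.05 for all genes. Only the libraries of Ngp and Ltf did not overlap, and AhR-deficient libraries lay below all WT libraries for 4.53% of all tested genes.

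S100a9 had 262, 506 and 3587 CPM in the lowest, median and highest WT library after LPS, and the AhR-deficient libraries had a median of 57.0 CPM and at most 353 CPM. A single AhR-deficient library, number 39, reached into the WT range. The log2 fold change was -3.30 ± 0.75 (edgeR's quasi-likelihood test, adjusted p = 0.00368; exact permutation p = 0.00866), and it was -2.44 without the highest WT library, number 37, and -4.12 without library 39. S100a8 had 309 to 4264 CPM (median 667) in WT and 80.3 to 586 CPM (median 131) in AhR-deficient libraries, with library 39 again within the WT range. Its log2 fold change was -2.62 ± 0.72 (edgeR's quasi-likelihood test, adjusted p = 0.0158; exact permutation p = 0.013). Without library 37 alone the value was -1.70 and the call was lost (adjusted p = 0.0858 by the same test), while without both libraries 33 and 37 it was -1.69 and the call was kept (adjusted p = 0.0353). Without library 39 the value was -3.30.

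Ngp and Ltf kept the genotypes apart. Ngp had 57.1 to 478 CPM (median 102) in WT and 10.8 to 46.7 CPM (median 15.5) in AhR-deficient libraries after LPS, a log2 fold change of -3.31 ± 0.56 (edgeR's quasi-likelihood test, adjusted p = 0.000196). Ltf had 7.78 to 288 CPM (median 28.9) in WT and 3.64 to 7.38 CPM (median 5.13) in AhR-deficient libraries, which lay close together. Its log2 fold change was -3.72 ± 0.79 (edgeR's quasi-likelihood test, adjusted p = 0.00204), and -2.27 without WT library 29. The exact permutation p was 0.00216 for both. Camp had 18.2 to 159 CPM (median 33.2) in WT and 5.65 to 29.6 CPM (median 10.1) in AhR-deficient libraries, and 5 of 6 AhR-deficient libraries lay below all WT libraries. Its log2 fold change of -2.06 ± 0.68 did not pass the test (edgeR's quasi-likelihood test, adjusted p = 0.0502; exact permutation p = 0.00866). Camp was called in 8 of the 24 fits that left out 1 library, with -2.51 without library 39 (adjusted p = 0.0241), and when only the 12 libraries compared were fitted (-2.02, adjusted p = 0.0454), a fit in which Elane had too few counts to be tested. With the block of library numbers as a factor Camp was also called (-1.98, adjusted p = 0.00971 by the same test). Without library 37 it was -1.32 (adjusted p = 0.214).

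Elane was close to undetected in AhR-deficient cells after LPS, with 2 counts in all 6 libraries, both in library 32, against 307 counts in the 6 WT libraries. At equal depth this is a ratio of 139 (95% counting interval 38.1 to 1151). The WT libraries had 0.0284 to 2.95 CPM (median 0.543), and the fitted log2 fold change of -6.74 ± 1.23 (edgeR's quasi-likelihood test, adjusted p = 0.000445; exact permutation p = 0.00433) depends on the prior count of the fit. Without library 32 it was -8.80 and without the highest WT library, number 22, -5.92. Ly6g had 0.223 to 0.857 CPM (median 0.409) in WT and 0.0191 to 0.707 CPM (median 0.211) in AhR-deficient libraries after LPS, with a log2 fold change of -0.71 ± 0.62 (edgeR's quasi-likelihood test, adjusted p = 0.616). These levels rest on 148 counts over the WT and 86 over the AhR-deficient libraries. Retnlg had 21 counts in 4 WT libraries and 6 counts in 2 AhR-deficient libraries, a ratio of 3.17 (95% counting interval 1.24 to 9.58). Its fitted log2 fold change of -1.56 ± 0.94 did not pass the test (edgeR's quasi-likelihood test, adjusted p = 0.371), and was -3.56 without library 39 (adjusted p = 0.0262). Mpo had 19 and 16 counts in the WT and AhR-deficient groups. Within the 3 blocks of library numbers, the differences of the 8 tested genes were negative, except for Ly6g in the first block. The share of all genes for which this held was again not counted.

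**Figure D2:**
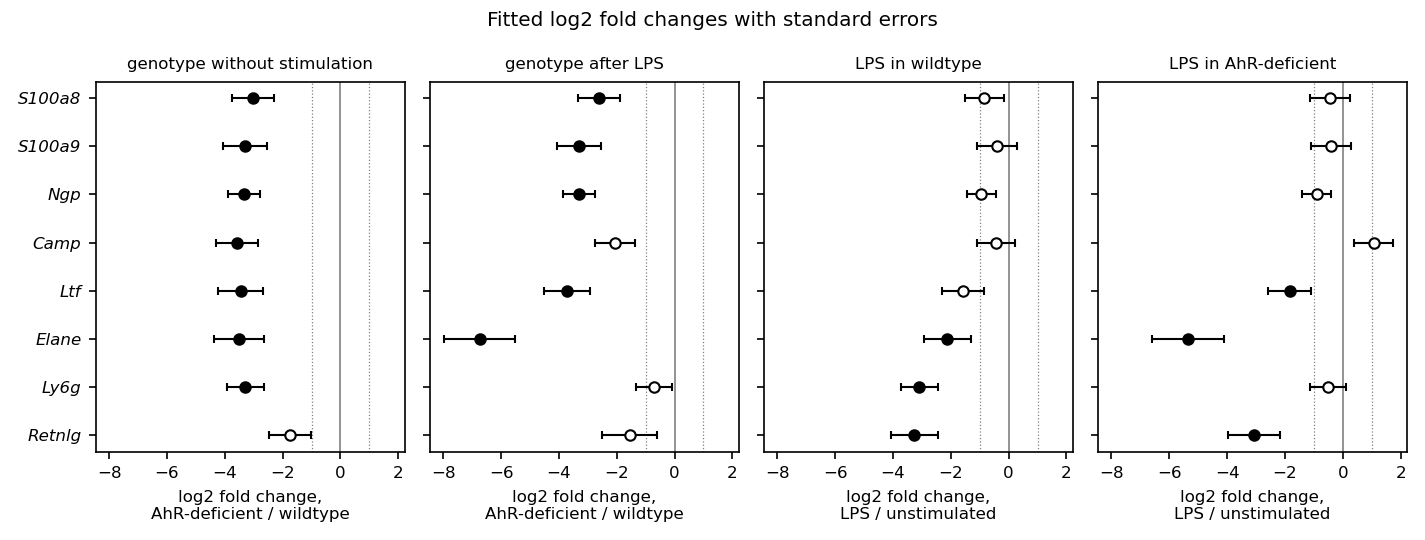
log2 fold change with its SE for the 8 tested genes in 4 comparisons, of the genotypes in unstimulated and in LPS-treated BMDMs and of LPS in WT and in AhR-deficient BMDMs. Filled points were called, and the dotted lines stand at a 2-fold change. Every called point lies to the left of the line at -1.

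The next comparisons ask what 24 h of LPS did in WT and in AhR-deficient BMDMs, and each shares a group of libraries with each genotype comparison. In WT, Ly6g, Retnlg and Elane were lower after LPS, 3 of the 8 tested genes, beside lower calls for 11.8% and calls in either direction for 24.9% of all tested genes. In AhR-deficient BMDMs, Elane, Retnlg and Ltf were lower, 3 of 8, beside 15.7% and 30.8%. No gene of the 8 was called higher after LPS in either genotype, although Camp had a positive value in AhR-deficient BMDMs (1.07) and was called there when the fit took account of the length slope described below (1.06, adjusted p = 0.0308 by edgeR's quasi-likelihood test). The median log2 fold changes were -1.25 in WT and -0.71 in AhR-deficient BMDMs, against 0.03 and -0.03 for all genes. How many of all tested genes had groups without overlap was not counted for LPS. The overlaps given below for single genes therefore have no such share beside them.

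Ly6g, which had a median of 2.15 CPM in WT without stimulation and 0.409 CPM after LPS, did not overlap between these groups. Its log2 fold change in WT was -3.10 ± 0.64 (edgeR's quasi-likelihood test, adjusted p = 0.000407; exact permutation p = 0.00216), and -2.42 without library 33. In AhR-deficient BMDMs, where it was already low, the value was -0.51 ± 0.62 (edgeR's quasi-likelihood test, adjusted p = 0.546). Retnlg fell from a median of 0.671 to 0.0768 CPM in WT, also without overlap, a log2 fold change of -3.26 ± 0.80 (edgeR's quasi-likelihood test, adjusted p = 0.00226; exact permutation p = 0.00216). In AhR-deficient BMDMs Retnlg had 74 counts without stimulation and 6 after LPS, a ratio of 9.35 (95% counting interval 4.10 to 26.3), and the fitted log2 fold change was -3.06 ± 0.90 (edgeR's quasi-likelihood test, adjusted p = 0.00753). Without library 39 it was -5.06.

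Elane fell after LPS in both genotypes. In WT its median went from 3.19 to 0.543 CPM, a log2 fold change of -2.12 ± 0.81 (edgeR's quasi-likelihood test, adjusted p = 0.0418; exact permutation p = 0.0216). This call was lost when any 1 of 9 libraries was left out, with an adjusted p between 0.00908 and 0.129 over all single libraries left out and the highest without library 17, where the log2 fold change was -1.65. Without library 22 it was -2.93. In AhR-deficient BMDMs Elane had 131 counts without stimulation and 2 after LPS, a ratio of 49.6 (95% counting interval 13.5 to 414). All 6 libraries after LPS lay below those without stimulation. The fitted value was -5.36 ± 1.24 (edgeR's quasi-likelihood test, adjusted p = 0.00103), and it was -7.41 without library 32 and -4.44 without library 35.

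Ltf was called in AhR-deficient BMDMs, where its log2 fold change after LPS was -1.83 ± 0.74 (edgeR's quasi-likelihood test, adjusted p = 0.0468; exact permutation p = 0.0195). The call was kept in 9 of the 24 fits that left out 1 library. In WT the value was -1.57 ± 0.73 (edgeR's quasi-likelihood test, adjusted p = 0.0955), and -3.02 without library 29 (adjusted p = 0.000542). Ltf in WT was called with the block of library numbers as a factor (-1.76, adjusted p = 0.0107 by the same test) and with the length slope described below (-1.91, adjusted p = 0.00251), and also by limma-voom (-2.04, adjusted p = 0.0145), by DESeq2 (-1.58, adjusted p = 0.0462) and under total library size (-1.95, adjusted p = 0.0434). The WT values were -0.94 ± 0.52 for Ngp, -0.84 ± 0.68 for S100a8, -0.41 ± 0.69 for S100a9 and -0.44 ± 0.66 for Camp, none of which passed the test. A missed threshold does not show that these levels were unchanged, and the unpaired fit cannot use any sharing of animals between the states. In WT, each LPS library lay below the unstimulated library 4 numbers before it for S100a8, S100a9, Ngp and Ltf. For Camp, libraries 22 and 38 lay above theirs. Whether such libraries share an animal is not stated, so this pattern was not tested. Without library 33 the WT values of S100a8, S100a9 and Camp were 0.04, 0.29 and 0.61, and without both libraries 33 and 37 they were -0.89, -0.57 and -0.13, none of them called. Without library 29 the WT value of Ngp was -1.41 (edgeR's quasi-likelihood test, adjusted p = 0.0344), and without library 37 that of S100a8 was -1.75 (adjusted p = 0.0382 by the same test). In AhR-deficient BMDMs the values were -0.91 ± 0.52 for Ngp, -0.44 ± 0.68 for S100a8, -0.41 ± 0.69 for S100a9 and 1.07 ± 0.67 for Camp. Without library 39 the value of Ngp was -1.34 (edgeR's quasi-likelihood test, adjusted p = 0.0402), and those of S100a8, S100a9 and Camp were -1.10, -1.21 and 0.63, none of them called.

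The last comparison, the interaction of genotype and LPS, asks whether the LPS response differed between genotypes. It called none of the 8 tested genes by edgeR's quasi-likelihood test, beside 4.30% of all tested genes, and 2 of the 8, Ly6g and Elane, had an unadjusted p under 0.05. DESeq2 called 1, beside 6.78% of all tested genes, and limma-voom 0, beside 4.22%. Ly6g came nearest, with an interaction of 2.59 ± 0.87 on the log2 scale (adjusted p = 0.109 by the same test), and was the gene called by DESeq2 (2.60, adjusted p = 0.0319). The Ly6g interaction was also called by edgeR's quasi-likelihood test with the block of library numbers as a factor (2.52, adjusted p = 0.0488) or when the fit took account of the length slope (2.32, adjusted p = 0.0316), so its call depends on the fit. Elane had an interaction of -3.24 (edgeR's quasi-likelihood test, adjusted p = 0.338) and Camp one of 1.51 (adjusted p = 0.595). The interactions of S100a8, S100a9, Ngp, Ltf and Retnlg lay between -0.27 and 0.40, and each changed sign under some of the alternatives.

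The spread within a group was wide, and the genes did not all share it. With each group's mean subtracted, log2(CPM + 0.5) of S100a8 and S100a9 followed each other over the 24 libraries with Pearson's r = 0.977 and Spearman's rho = 0.956 (permutation p = 1e-05 for both, the smallest that 100000 permutations can give, 28 pairs computed). Leaving out libraries 33 and 37, the farthest from the median of S100a8, gave r = 0.967, and r was 0.991, 0.977 and 0.985 within the 3 blocks of library numbers. Camp followed S100a8 almost as closely, at r = 0.952 and rho = 0.909 (permutation p = 1e-05), with r = 0.923 without those libraries and 0.912, 0.847 and 0.964 within blocks. These 3 genes lie on 2 chromosomes and belong to different compartments of the neutrophil. The permutations treat libraries as independent. If unstimulated and LPS libraries share animals, the p-values of all pairs are too small.

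Ngp took a middle place. Its r was 0.842 with S100a9 (rho = 0.787, permutation p = 8e-05 for r) and 0.704 with Camp (rho = 0.712, permutation p = 0.00043 for r), and within the first block these were 0.508 and 0.472. Ltf stood apart from the S100 pair, with r = -0.119 and rho = -0.197 to S100a8 (permutation p = 0.66 and 0.4). Within blocks that relation ran from -0.547 in the first to 0.94 in the second. Ltf and Ngp, both secondary granule genes of chromosome 9, had r = 0.502 and rho = 0.386 (permutation p = 0.042 and 0.092), and r = 0.352 without the farthest libraries.

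**Figure D3:**
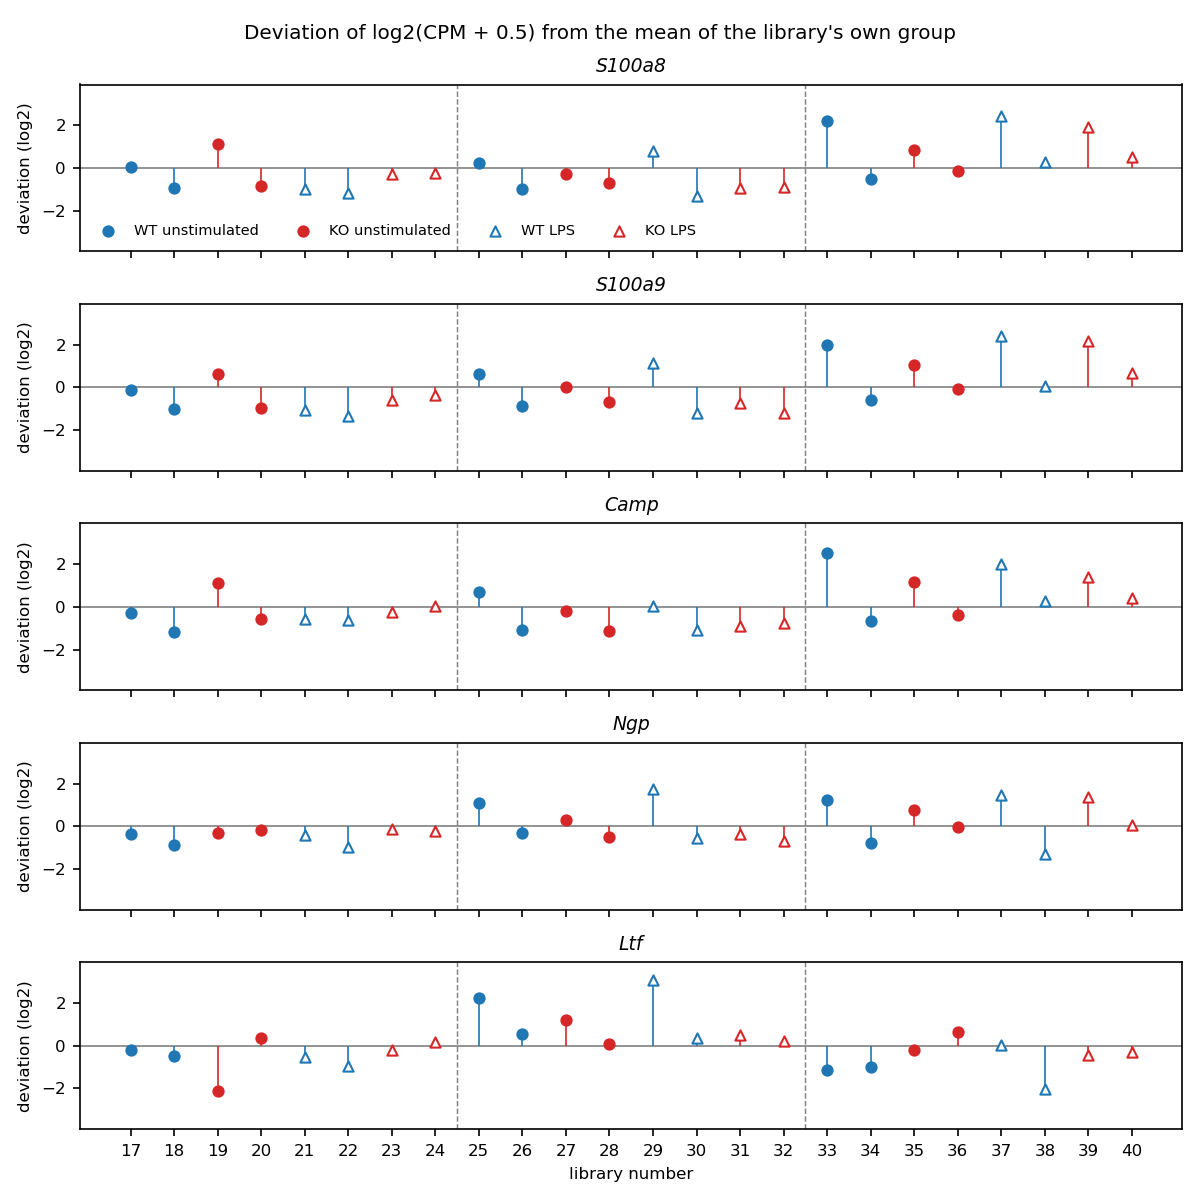
Deviation of log2(CPM + 0.5) from the mean of the library's own group, for S100a8, S100a9, Camp, Ngp and Ltf, against library number (17 to 40). Dashed lines part the 3 blocks of 8 numbers. S100a8, S100a9 and Camp peak together in libraries 33 and 37, and Ltf peaks in libraries 25 and 29.

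The plot of deviations by library number shows these patterns beside the blocks. Libraries 33 and 37, both WT, were the highest of their groups for S100a8, S100a9 and Camp, while libraries 25 and 29, also WT, were the highest for Ltf. How strongly a library favoured long genes was measured by regressing its log2(CPM + 0.5) values on log2 exon length over genes, and this slope ran from -0.299 to 0.308 over the 24 libraries, with block means of 0.0263, 0.252 and -0.101. It was -0.284 in library 33 and -0.180 in library 37, and 0.237 in library 25 and 0.298 in library 29. The deviations of the short S100a8 (694 bases of exon) and Camp (758 bases) went down with this slope, at r = -0.747 and rho = -0.658 for S100a8 (permutation p = 0.00017 and 0.0021) and r = -0.774 and rho = -0.675 for Camp (permutation p = 0.0001 and 0.0011). That of the long Ltf (3450 bases) went up with it, at r = 0.717 and rho = 0.771 (permutation p = 0.00011 and 9e-05), and Ngp (1222 bases) had r = -0.187 and rho = -0.145 (permutation p = 0.43 and 0.54). The still shorter S100a9 (522 bases) and Retnlg (593 bases) had weaker values, r = -0.629 and r = -0.478. Ly6g had r = -0.536 and Elane r = -0.385. Without libraries 19 and 33 the values of r for S100a8, Camp and Ltf were -0.674, -0.7 and 0.635. The permutations for the slope also treat libraries as independent. The group means of the slope lay between 0.0407 and 0.0809. With the slope as a covariate of the fit the genes called lower were 7 without stimulation and 6 after LPS, beside calls in either direction for 6.62% and 11.9% of all tested genes, and after LPS Camp was called with a log2 fold change of -2.15 (edgeR's quasi-likelihood test, adjusted p = 0.000383) and Ltf had -3.11. The log2 fold changes without stimulation were then -2.77 for S100a8, -3.37 for Camp and -3.42 for Ltf.

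The genes most like each of the 8, by Pearson's r of log2(CPM + 0.5) over all 24 libraries among 12704 genes, are given as a description, since all share the same libraries and groups. For S100a8 they were Clec4b2 (0.966), Olfm4 (0.966) and G0s2 (0.952), and for S100a9 they were BC100530 (0.976), Olfm4 (0.974) and Clec4b2 (0.954). For Ngp they were Cd177 (0.972), Ceacam10 (0.961) and Cldn15 (0.961), and for Camp they were Mogat2 (0.941), Clec4b2 (0.926) and Ifitm6 (0.922). Olfm4, a secondary granule protein, and Cd177, a surface protein of neutrophils, are themselves neutrophil genes. Ltf had Gpx3 (0.926), Cd177 (0.907) and Ablim1 (0.906), and Elane had Prtn3 (0.916), Cd34 (0.885) and Ms4a3 (0.857). Prtn3 is the primary granule protease next to Elane on chromosome 10. Ly6g had Cd7 (0.862), Tspan8 (0.852) and Rgs18 (0.847), and Retnlg had Akr7a5 (0.886), Gpr34 (0.883) and Klrb1f (0.879), at lower likeness than for the more abundant genes.

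Lists of other granule and marker genes, with the 9 genes left out, were counted under the same tests. All lists together hold 183 entries for 163 genes, so some genes are counted in more than 1 list. Of the other secondary granule genes, 6 of 9 were called lower in AhR-deficient BMDMs in both states and none higher, with median log2 fold changes of -2.98 without stimulation and -2.66 after LPS. Mmp8, the neutrophil collagenase, had -4.44 (edgeR's quasi-likelihood test, adjusted p = 1.22e-07) and -3.66 (6.98e-07), and Olfm4 had -3.58 and -3.82. Lcn2, the siderophore-binding lipocalin, was lower, at -3.24 and -1.65 on the log2 scale, and rose after LPS by 2.99 in WT and 4.58 in AhR-deficient BMDMs. Of the other primary granule genes, 2 of 8 were called lower without stimulation and 3 after LPS. They included the proteases Ctsg (-3.66 and -3.80) and Prtn3 (-3.16 and -3.17). Of the tertiary granule and secretory genes, 3 of 9 were called lower without stimulation, and after LPS 2 were called lower and 1 higher.

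Of the other S100 genes, none of 8 was called without stimulation by edgeR's quasi-likelihood test (1 had an unadjusted p under 0.05) and 2 were called lower after LPS, with list medians of 0.06 and -0.05. The exception with a large change was S100a4, a calcium-binding protein of motile cells, at -0.15 without stimulation and -3.46 ± 0.39 after LPS (edgeR's quasi-likelihood test, adjusted p = 1.5e-06). Its interaction was -3.30 ± 0.52 (adjusted p = 0.000488 by the same test), whereas none of the 8 tested granule and S100 genes was called for it. S100a5 was the other, at -1.53 and -2.67. Of 6 receptor genes for S100a8 and S100a9, the scavenger receptor Cd36 was higher in AhR-deficient BMDMs, by 2.02 without stimulation and 2.36 after LPS on the log2 scale, and Cd69 was lower without stimulation. Among the stefins, cysteine protease inhibitors of neutrophils with near-identical copies whose counts are uncertain, and other protease inhibitors, 5 of 10 were called lower without stimulation, and 6 lower and 1 higher after LPS. Stfa2 had -3.98 and -3.55 and BC100530 had -3.85 and -3.67. Of 11 granulopoiesis factors, Cebpe, the C/EBP factor needed for secondary granules, was the one called gene in each genotype comparison, at -2.73 (edgeR's quasi-likelihood test, adjusted p = 7.72e-07) and -1.88 (3.76e-05).

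**Figure D4:**
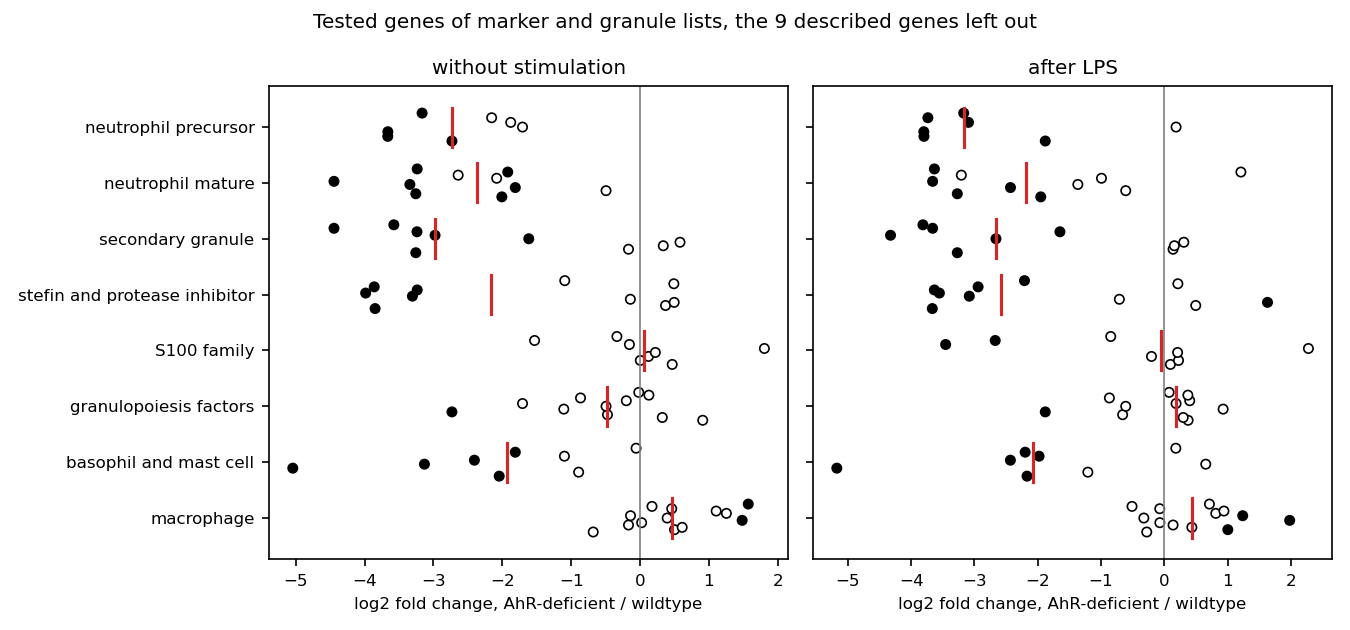
log2 fold change of AhR-deficient over WT BMDMs for the tested genes of 8 lists, without stimulation and after LPS, with the 9 described genes left out. Each point is a gene, filled points were called, and the red line is the list median. The neutrophil precursor, neutrophil mature, secondary granule and stefin lists have medians between -3.17 and -2.16, the S100 and macrophage lists between -0.05 and 0.46.

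Cell type markers moved with the genotype beside these genes. Some were already counted above, with Prtn3, Ctsg and Cebpe also in the precursor list and Mmp8 also in the mature list. Neutrophil precursor markers without the 9 genes were called lower in 4 of 7 cases without stimulation and 6 of 7 after LPS, and mature neutrophil markers in 7 of 10 and 5 of 10, none higher. The mature markers summed to 429 to 716 CPM in WT and 32.3 to 54.0 CPM in AhR-deficient libraries without stimulation, and 99.6 to 546 CPM and 34.2 to 104 CPM after LPS. The precursor markers summed to 13.3 to 59.1 and 1.78 to 7.84 CPM without stimulation and to 13.2 to 34.3 and 2.83 to 5.98 CPM after LPS. No gene of either list was at 0 in a group. The share of neutrophil lineage cells in these cultures, and its part in the differences of the 9 genes, was not tested.

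Markers of other cells were counted the same way. Basophil and mast cell markers were called lower in 5 of 8 cases in both states, with the transcription factor Gata2 at -5.04 and -5.18, and none higher. Macrophage markers were called higher in 2 of 13 cases without stimulation and 3 of 13 after LPS and lower in none, with medians of 0.46 and 0.44. Monocyte markers were called lower in 2 of 8 cases without stimulation, and after LPS 1 was lower and 2 were higher. Eosinophil markers had 1 lower (Ear6) and 2 higher (Ear1 and Ear2) of 7 in both states, and Ear2 is also in the macrophage list. Epx, Prg2 and Prg3 had negative values in both states that were not called. Dendritic cell markers had 4 lower and 2 higher of 7 without stimulation and 4 lower after LPS. No B cell marker had enough counts to be tested, and 1 T and NK cell marker and 2 erythroid markers did, of which 1 T and NK cell marker was higher after LPS. In the Ly6 family, whose members share near-identical sequence, 4 of the 5 tested genes other than Ly6g were lower in both states, with Ly6c2, a monocyte antigen, at -3.17 and -1.78. Unlike Ly6g, Ly6c2 rose in WT after LPS, by 2.24 on the log2 scale. None of the 3 other resistin-like genes had enough counts to be tested beside Retnlg. The part of any of these cell types in the values of the 9 genes was not tested.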

How the data were processed

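RNA was measured in 24 libraries of BMDMs, 6 in each of 4 groups taken from the sample labels. Per the labels and the methods of the study, poly(A) RNA was made into directional libraries, demultiplexed with bcl2fastq 2.20.0, aligned to mm10 with GSNAP, and counted by the authors with featureCounts 2.0.1 as unique reverse-stranded fragments on the genes of Ensembl release 98. The deposited values are these raw counts per gene, with no normalization. The 92 spike-in rows held 1 count in all and were left out. GENCODE M21 named 55154 of the 55421 genes.

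All 24 libraries entered 1 fit with a coefficient per group in edgeR 4.0.16 (R 4.3.3, TMM, filterByExpr, robust quasi-likelihood F-test), which kept 16593 genes. A gene was called at a Benjamini-Hochberg adjusted p of at most 0.05 over these genes and a change of 2-fold or more, except for the interaction, which had no minimum fold. CPM values are TMM-scaled. The biological coefficient of variation was 49.1%. Exact permutation tests of single genes (36 tests) and permutations of library pairs used log2(CPM + 0.5) and scipy 1.17.1 under Python 3.11.15 (pandas 2.3.3, numpy 2.4.6), with matplotlib 3.10.9 for plots. Their p-values are given unadjusted and treat libraries as independent. Ratios of few counts have exact 95% intervals that cover counting error only.

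Alternatives were total library size, DESeq2 size factors, DESeq2 1.42.0, limma-voom (limma 3.58.1), other filters, only the libraries compared, the block of library numbers as a factor, the gene length slope as a covariate or an offset, pseudocounts of 0.1 and 2, no minimum fold change, and leaving out libraries. The 9 genes and the 19 lists of 163 genes, written from general knowledge, were chosen with earlier results of these data known. Named genes are the 9, the 3 genes most like each tested one, list genes called with the largest changes (up to 4 a list and comparison), and Ahr. The tests were checked on simulated counts.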

Additional observations from a re-analysis of the deposited data

Results flagged for a closer look

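In each group of 6 libraries, the highest or lowest library was compared with its nearest neighbour, and 17 of 36 gene and group combinations had a gap of more than 0.625 of the group's range (Dixon's criterion). The criterion takes about 1 group in 20 by chance when values are independent and normally distributed, which the skewed CPM values of these related genes are not, so the count is not set against that rate. With a gene at 0 in 5 of 6 libraries, as Elane in AhR-deficient BMDMs after LPS, the criterion is always met. All 17 were a highest library. Library 33 gave 4 of them, library 39 gave 4 and library 37 gave 3, and the other 6 came from a library each.

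In unstimulated WT, library 33 had 7360 CPM of S100a8 (the next library 1880), 4250 of S100a9 (1700), 257 of Camp (71.6) and 11.7 of Ly6g (4.85), and library 25 had 664 CPM of Ltf (206). In WT after LPS, library 37 had 4260 CPM of S100a8 (1340), 3590 of S100a9 (1470) and 159 of Camp (47.5). Library 29 had 288 CPM of Ltf (43.0), library 22 had 2.95 CPM of Elane (1.03), and library 38, which also lacks Y-linked counts, had 0.343 CPM of Mpo (0.0344). In AhR-deficient BMDMs after LPS, library 39 had 586 CPM of S100a8 (222), 353 of S100a9 (124), 46.7 of Ngp (18.4) and 0.129 of Retnlg (0.0197). Library 32 had 0.0361 CPM of Elane, where the others had 0, and library 40 had 0.248 CPM of Mpo (0.0606). No library of the unstimulated AhR-deficient group stood out in this way.

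Without both libraries 33 and 37, a choice made after the data had been seen, the genes called were 7 without stimulation and 5 after LPS, beside calls for 4.9% and 8.96% of all tested genes. The log2 fold changes without stimulation were then -2.16 for S100a8, -2.61 for S100a9, -2.53 for Camp and -2.64 for Ly6g, and after LPS -1.69 for S100a8 (edgeR's quasi-likelihood test, adjusted p = 0.0353) and -2.44 for S100a9. Without both libraries 25 and 29, chosen in the same way, Ltf had -2.59 without stimulation and -2.27 after LPS, and 7 and 5 genes were called, beside 4.51% and 7.78% of all tested genes.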

How the results depend on the processing

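No called result changed sign under an alternative. Of the values not called, 46 interaction values and 16 others changed sign, among them the interactions of S100a8 (-0.05), S100a9 (-0.49), Ngp (-0.12), Ltf (0.31) and Retnlg (-0.05) with the length slope as a covariate. Of 188 comparisons of a number of called genes, 183 stayed within 1.5 times the main number. The exceptions were LPS in WT with 5 genes called under total library size, LPS in AhR-deficient BMDMs with 1 when only the libraries compared were fitted (Elane and Retnlg then had too few counts to be tested), and the interaction with 1, Ly6g, under DESeq2 (2.60), the block factor (2.52) and the length slope covariate (2.32). In the same order, these fits called 28.8%, 30.3%, 6.78%, 7.24% and 16.4% of all tested genes. Leaving out 1 library gave 7 to 7 genes called without stimulation, 4 to 7 after LPS, 2 to 4 for LPS in WT, 2 to 3 for LPS in AhR-deficient BMDMs and 0 to 0 for the interaction. In the same order, these fits called 3.98% to 4.72%, 7.37% to 8.79%, 23.4% to 25.6%, 29.6% to 31.2% and 3.34% to 4.63% of all tested genes. Total library size moved the median log2 fold change of all genes to -0.09, -0.26, -0.31 and -0.52 in the first 4 comparisons. The interaction called 713 of all tested genes by edgeR, 1125 by DESeq2 and 2721 with the length slope. Camp after LPS, just outside the threshold, was called under total library size, DESeq2, the block factor, both length corrections, only the libraries compared and 8 of 24 single libraries left out. Ltf in AhR-deficient BMDMs was lost under limma-voom (adjusted p = 0.141) and with no filter (0.0678). Elane in WT was lost with only the libraries compared (0.0556), with no filter (0.0591) and without the libraries that lack Y-linked counts (0.0647). Without the latter libraries 7, 5, 2, 3 and 0 genes were called in the 5 comparisons, beside 4.27%, 8.03%, 23.6%, 30.8% and 3.66% of all tested genes. Ngp after LPS was called under total library size in WT (-1.28) and AhR-deficient BMDMs (-1.43), and Camp in AhR-deficient BMDMs with the length slope (1.06). The cause was not tested. No paired analysis was run, because the labels give each library a number of its own and name no animal. Libraries 4 numbers apart (33 and 37, 25 and 29, 34 and 38) stood out alike, but a pairing by number would be a guess from library order. Depth limits Mpo, Retnlg and Elane, and Ly6g after LPS, which had few counts.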
